A study of Mus musculus with 8 samples.

Results

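The genes described here are the mitophagy receptors Bnip3, Bnip3l, Fundc1, Bcl2l13, Phb2 and Fkbp8, the Fundc1 relative Fundc2, and the kinase gene Pink1. They were chosen by name, with earlier results of these data known, and are 8 of 21887 protein-coding genes on the autosomes and sex chromosomes. Binding of phosphorylated CREB1 (phospho-CREB1), the active form of a transcription factor that answers cAMP, was measured in mouse skeletal muscle by chromatin immunoprecipitation and sequencing (ChIP-seq). C26 libraries came from male Balb/c mice that were injected under the skin at 2 months of age with C26 cells, a colon adenocarcinoma line used as a model of cancer cachexia. CTRL libraries came from control mice, whose age the labels do not give apart from this. There were 2 phospho-CREB1 libraries per group, C26 and CTRL, with 1 input from the same group for each. The treatment protocol describes rolipram, a phosphodiesterase 4 inhibitor, or vehicle for tumor-bearing mice and does not say which of them these animals received. The labels name the gastrocnemius and the extraction protocol the quadriceps, so the text says muscle. The titles name phospho-CREB1, whereas the protocol lists CREB or phospho-CREB1 antibodies. Nothing in the labels says that the 2 libraries of a group came from separate animals, so the spread between them may be technical.

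Mitophagy is the removal of mitochondria by autophagosomes. In 1 route the kinase PINK1 accumulates on mitochondria that have lost their membrane potential and phosphorylates ubiquitin on them, after which ubiquitin-binding adaptors link the organelle to the LC3 and GABARAP proteins of the autophagosome. In the other, receptors that sit in the mitochondrial membranes bind LC3 or GABARAP themselves. In skeletal muscle both are studied because fibers depend on the turnover of damaged mitochondria and lose mass when it is disturbed.

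The 4 peak lists held 7482 peaks (C26 replicate 1), 4051 peaks (C26 replicate 2), 10835 peaks (CTRL replicate 1) and 14975 peaks (CTRL replicate 2). Read depth is unknown, and absence of a peak means only that the authors' cutoff was not met, not that the gene was unbound. Fold enrichment over input and −log10 q are the authors' values, each on the scale of 1 library and its input. Strength is therefore given as a percentile by −log10 q within a list, 100 being the strongest. The lists differ in length, so the same rank gives different percentiles in different lists. Fold enrichments of several libraries are printed side by side as the authors gave them, not as a comparison of binding. A gene-end peak is one with its summit within 1000 bp of either end of the gene span. Of 10 skeletal muscle markers, 2 had gene-end peaks in both C26 libraries (13.0% of all protein-coding genes) and 7 in both CTRL libraries (32.2%). Pvalb, Mb and Pygm, 3 of the 10, had one in both CTRL and neither C26 library (7.40% of all genes). Their part in the results below was not tested. Of 12 markers of other cell types, 0 met the rule in both C26 and 1 in both CTRL libraries. These calls depend on the window. With summits anywhere in the gene span or within 5000 bp of it, only Mb of the 10 muscle markers kept that pattern (8.60% of all genes). Pvalb was then listed in all 4 libraries, and Pygm in C26 replicate 2 and both CTRL libraries. Cd68, 1 of the 12 other markers, was also listed in all 4.

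Phospho-CREB1 peaks lay at the gene end of all 8 genes in at least 1 library, and 3 receptor genes, Phb2, Bcl2l13 and Bnip3l, had one in all 4. Pink1 and Fundc1 had one in both CTRL libraries and in neither C26 library. Bnip3 had one in both CTRL libraries and in C26 replicate 1. Fkbp8 and Fundc2 did not have one in both libraries of either group. By library, gene-end peaks were listed for 5 and 3 of the 8 genes in the C26 libraries (replicates 1 and 2), against 7 in each CTRL library. Over all 21887 protein-coding genes the shares were 26.1% and 14.0% in C26 replicates 1 and 2 and 33.9% and 40.1% in CTRL replicates 1 and 2, and 57.7% of all genes had a gene-end peak in none of the 4. In all, 22 gene-end peaks were listed, and their summits lay at most 95 bp from the gene end, with a median of 30.5 bp. For the 7 genes whose strand is given, all 18 such summits lay at the 5′ end, between 95 bp upstream and 10 bp downstream of it. The strand of Bnip3l is not given in the table used here, and its summits lay at the end with the higher coordinate.

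**Figure D1:**
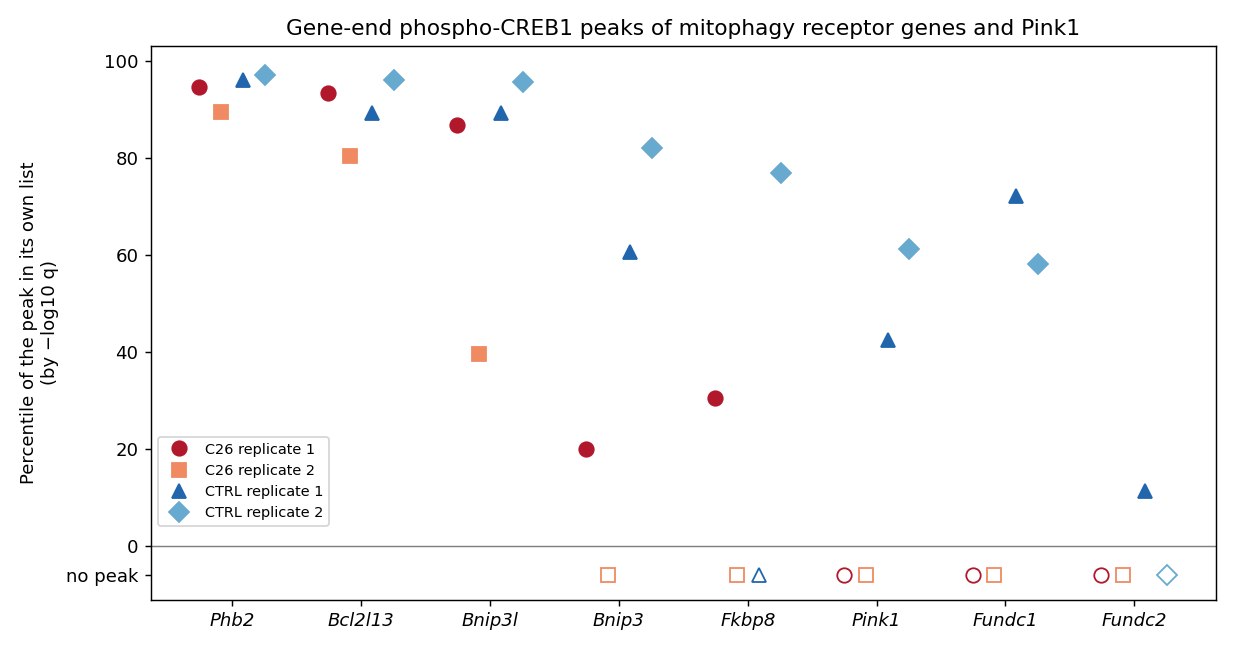
Percentile of each gene-end peak within its own list (vertical axis, 100 is strongest by −log10 q) for the 8 genes, with C26 libraries left of CTRL libraries for each gene; open symbols mark a library with no gene-end peak. Phb2, Bcl2l13 and Bnip3l have a filled symbol for every library, while Pink1 and Fundc1 have filled symbols for the CTRL libraries and open ones for the C26 libraries.

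The promoter sequences below are shown because the peaks sit on them. RefSeq promoters (build GRCm38.p6, from 250 bases before to 50 after a transcript start) were matched for 7 of the 8 genes, all but Bnip3l. The 5 printed are those of the genes that gave peaks in at least 1 C26 library, and of Pink1. They are Bcl2l13 (chr6:120835980-120836279, plus strand), Phb2 (chr6:124712039-124712338, plus strand), Bnip3 (chr7:138909457-138909756, minus strand), Fkbp8 (chr8:70527493-70527792, plus strand) and Pink1 (chr4:138326247-138326546, minus strand). Bases are counted from 1 at the 5′ end, and capitals mark the motifs described after them.
Bcl2l13: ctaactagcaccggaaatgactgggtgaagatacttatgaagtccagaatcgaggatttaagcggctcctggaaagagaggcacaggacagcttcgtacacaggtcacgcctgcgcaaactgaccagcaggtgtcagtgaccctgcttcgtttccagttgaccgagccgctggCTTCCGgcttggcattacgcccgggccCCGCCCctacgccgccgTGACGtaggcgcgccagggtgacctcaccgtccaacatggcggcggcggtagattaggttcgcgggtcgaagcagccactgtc
Phb2: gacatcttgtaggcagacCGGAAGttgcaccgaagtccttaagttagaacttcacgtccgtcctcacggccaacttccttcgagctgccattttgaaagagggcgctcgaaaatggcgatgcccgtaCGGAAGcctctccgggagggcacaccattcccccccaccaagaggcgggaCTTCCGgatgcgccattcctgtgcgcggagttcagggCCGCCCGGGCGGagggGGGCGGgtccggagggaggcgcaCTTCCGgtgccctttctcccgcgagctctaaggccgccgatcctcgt
Bnip3: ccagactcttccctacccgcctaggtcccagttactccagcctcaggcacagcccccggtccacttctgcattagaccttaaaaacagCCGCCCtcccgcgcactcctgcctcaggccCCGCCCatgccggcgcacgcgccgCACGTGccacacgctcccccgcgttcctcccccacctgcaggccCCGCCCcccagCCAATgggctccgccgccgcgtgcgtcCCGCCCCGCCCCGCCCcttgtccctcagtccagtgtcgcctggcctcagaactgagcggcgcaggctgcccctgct
Fkbp8: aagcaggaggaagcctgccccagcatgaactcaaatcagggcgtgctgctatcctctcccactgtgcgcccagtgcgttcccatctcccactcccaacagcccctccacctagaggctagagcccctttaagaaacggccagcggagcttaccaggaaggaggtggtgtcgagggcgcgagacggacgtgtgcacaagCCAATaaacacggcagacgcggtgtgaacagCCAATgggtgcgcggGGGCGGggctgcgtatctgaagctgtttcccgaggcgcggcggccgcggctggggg
Pink1: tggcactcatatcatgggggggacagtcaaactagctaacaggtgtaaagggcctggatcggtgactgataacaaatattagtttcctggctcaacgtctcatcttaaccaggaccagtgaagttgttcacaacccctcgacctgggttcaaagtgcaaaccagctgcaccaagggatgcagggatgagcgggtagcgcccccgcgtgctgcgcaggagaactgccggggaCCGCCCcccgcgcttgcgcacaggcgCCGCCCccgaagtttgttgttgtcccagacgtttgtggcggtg

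The capitals mark exact matches on either strand to the cAMP response element half-site TGACG, the CCAAT box CCAAT, the GC box GGGCGG, the E-box CACGTG and the ETS core CGGAAG. The full element TGACGTCA and the variant TGACGCAA, which both contain the half-site, were also searched and had no match in the 7 promoters. The 7 include Fundc1, whose summits lay outside its promoter window, so the sequence at its summits was not searched for any motif. The full element was present in 1.79% and the variant in 0.490% of all 32851 promoters of this length. Bcl2l13 was the single gene of the 7 with a half-site, at bases 218 to 222. Half-sites were present in 20.8% of all promoters, and in 76.3% of the 1683 promoters that held a summit in all 4 lists. In Bcl2l13 the summits fell on bases 229 (C26 replicate 1), 215 (C26 replicate 2), 200 (CTRL replicate 1) and 222 (CTRL replicate 2). That is 7 and 3 bp from the half-site in the C26 libraries, 18 bp from it in CTRL replicate 1 and within it in CTRL replicate 2. The same promoter had a GC box at bases 201 to 206 and an ETS core at bases 174 to 179. The GC box lay 23 and 9 bp from the summits of C26 replicates 1 and 2, and 1 and 16 bp from those of CTRL replicates 1 and 2. The ETS core lay 50 and 36 bp from the C26 summits and 21 and 43 bp from the CTRL summits.

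Phb2 also held a summit in all 4 lists, and its promoter had no half-site in these 300 bases. It had 4 matches to the ETS core, at bases 19, 128, 178 and 254, and 3 to the GC box. The Phb2 summits fell on bases 196 and 167 in the C26 libraries and on bases 194 and 207 in the CTRL libraries. They lay between 11 and 24 bp from the nearest ETS core. The nearest GC box lay 19 and 48 bp from the summits of C26 replicates 1 and 2. From those of CTRL replicates 1 and 2 it lay 21 and 8 bp away, in the last nearer than the ETS core. An ETS core was present in 16.9% of all promoters and in 46.3% of those with a summit in all 4 lists. The ETS core was added to the search after the promoters had been read. Bnip3 had 6 GC boxes, some of them overlapping each other, 1 CCAAT box at bases 198 to 202 and 1 E-box at bases 143 to 148. Its summits fell on base 156 in C26 replicate 1 and on bases 176 and 212 in CTRL replicates 1 and 2. In that order, the E-box lay 8, 28 and 64 bp from them. The nearest GC box lay 31, 11 and 13 bp away and the CCAAT box 42, 22 and 10 bp. Fkbp8 had 2 CCAAT boxes, at bases 199 and 230, with summits between them on base 223 in C26 replicate 1 and base 215 in CTRL replicate 2. Pink1 had 2 GC boxes, and its summits fell on bases 197 and 261 in CTRL replicates 1 and 2, the second within the GC box at bases 258 to 263. GC boxes were present in 5 of the 7 promoters, in 35.7% of all promoters and in 73.0% of those with a summit in all 4 lists. The corresponding shares were 37.4% and 44.9% for CCAAT boxes and 7.15% and 12.6% for E-boxes. GC content of the 7 promoters ran from 58.0% to 71.7%, against a median of 52.7% over all promoters and 62.3% over those with a summit in all 4 lists. A match is a feature of the sequence and was not tested as a binding site.

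**Figure D2:**
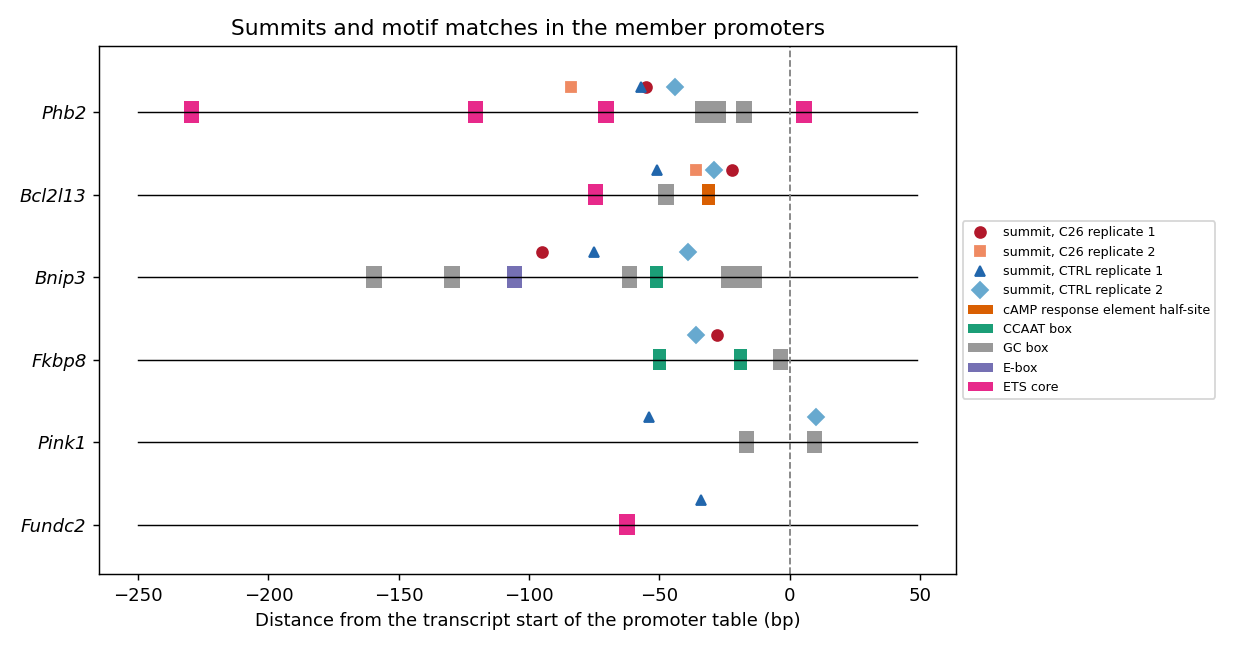
Positions of summits (symbols, 1 per library) and motif matches (colored boxes, on either strand) along 6 promoters, in bp from the transcript start of the RefSeq promoter table. The orange half-site box is in Bcl2l13, and the summits of all genes shown lie between 95 bp before and 10 bp after the start.

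Phb2 encodes prohibitin 2, a protein of the inner mitochondrial membrane that binds LC3 once the outer membrane has ruptured. It had the strongest gene-end peak of the 8 genes in every list. The authors' fold enrichment was 22.2 and 15.4 (C26 replicates 1 and 2), against 24.5 and 40.2 (CTRL replicates 1 and 2). These peaks stood at percentiles 94.6 and 89.5 of the C26 lists and 96.0 and 97.0 of the CTRL lists. Their ranks were 404 and 426 in the C26 lists and 432 and 446 in the CTRL lists. Phb2 was thus in the upper part of all 4 lists. The peak of CTRL replicate 2 ran from 124711935 to 124712563 on chromosome 6, and the summits of the 4 libraries lay within 40 bp of each other. Phb2 starts head to head with Emg1, a ribosome biogenesis gene on the other strand, and 3 of the 4 summits were nearer to the end of Emg1 (19 to 48 bp) than to the start of Phb2 (55 to 84 bp). The peak is therefore shared by both genes.

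Bcl2l13 encodes an outer membrane receptor of the BCL2 family, regarded as a mammalian counterpart of the yeast mitophagy receptor Atg32. Fold enrichment was 18.3 and 10.5 in C26 replicates 1 and 2, against 17.4 and 36.8 in CTRL replicates 1 and 2. Percentiles were 93.3 and 80.3 in the C26 lists and 89.3 and 96.0 in the CTRL lists. By percentile, C26 replicate 1 placed the peak above CTRL replicate 1 and below CTRL replicate 2. The rank of the peak was 505 and 797 in C26 replicates 1 and 2, against 1163 and 607 in CTRL replicates 1 and 2. The groups overlapped by either measure, and the lists differ in length. The peak of CTRL replicate 2 spanned chromosome 6, 120835831 to 120836627, with all summits within 29 bp of each other. The noncoding gene Gm38889 lies on the other strand, and its end was 0 to 15 bp from the 4 summits, so this peak too is shared by a pair of genes.

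Bnip3l encodes NIX, an outer membrane receptor known for clearing mitochondria from maturing red cells. Here enrichment was 10.6- and 6.42-fold in the C26 libraries (replicates 1 and 2), against 14.5- and 33.2-fold in the CTRL libraries. The percentiles were 86.7 and 39.6 in the C26 lists and 89.1 and 95.5 in the CTRL lists. C26 replicate 2 stood apart: it placed the peak below 60.9, the median over all protein-coding genes with a gene-end peak in that list, while the other 3 libraries placed it above theirs. The peak spanned 67008188 to 67009482 on chromosome 14 in CTRL replicate 2, with a width of 1295 bp the widest of the 22. In C26 replicate 2 it was 458 bp wide.

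Bnip3 encodes an outer membrane receptor that is induced by hypoxia and by FOXO3 in wasting muscle. A peak was listed in C26 replicate 1 with a fold enrichment of 3.72 and in CTRL replicates 1 and 2 with 7.47 and 15.3, and C26 replicate 2 had none. It stood at percentile 20.0 in C26 replicate 1, against 60.5 and 81.9 in CTRL replicates 1 and 2. In CTRL replicate 2 it ran from 138909256 to 138909948 on chromosome 7. The C26 replicate 1 peak was thus among the weaker ones of its list. Against the medians over genes with a gene-end peak (63.6 and 69.2), it stood below in CTRL replicate 1 and above in CTRL replicate 2.

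Pink1 encodes the kinase that starts the ubiquitin route. No peak was listed within 5000 bp of it in either C26 library. CTRL replicate 1 had a peak of 6.09-fold enrichment at chromosome 4, 138326066 to 138326514, and CTRL replicate 2 one of 8.92-fold at 138325675 to 138326434. They stood at percentiles 42.4 and 61.2, ranks 6216 of 10835 and 5801 of 14975, below the medians over genes with a gene-end peak in those lists (63.6 and 69.2). The summits lay 54 bp upstream and 10 bp downstream of the gene start.

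Fundc1 encodes an outer membrane receptor that acts in hypoxia. As for Pink1, neither C26 library had a peak within 5000 bp. CTRL replicates 1 and 2 listed 10.5- and 8.57-fold enrichment, at percentiles 72.1 and 58.0. The summits lay 2 bp upstream and 3 bp downstream of the 5′ end of the gene span on chromosome X (17572047 to 17572536 in CTRL replicate 1). Relative to the transcript start in the promoter table they lie at -324 and -319 bp, outside that promoter window.

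Fundc2, a less studied relative of Fundc1 that also codes for an outer membrane protein, had the fewest peaks. A single peak of 4.68-fold enrichment, at percentile 11.4, was listed in CTRL replicate 1 (chromosome X, 75382187 to 75382444, 258 bp wide). The other 3 libraries had none. The start of Fundc2 lies inside the span of the clotting factor gene F8 on the opposite strand, whose end is 373 bp from this summit.

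**Figure D3:**
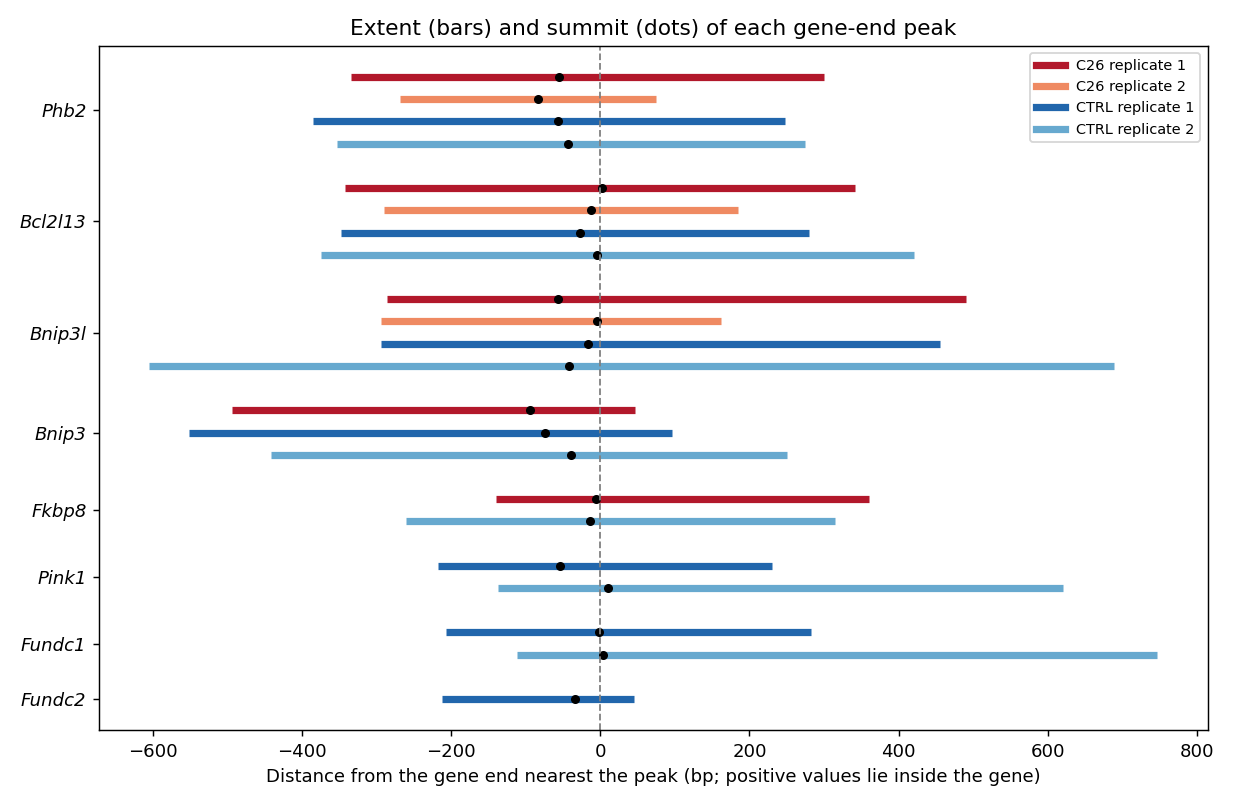
Extent (bars, colored by library, C26 above CTRL) and summit (black dots) of the 22 gene-end peaks, in bp from the gene end nearest the peak; positive values lie inside the gene, and Bnip3l is drawn from its end with the higher coordinate. All dots lie within 95 bp of the dashed line at 0.

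Fkbp8 encodes an outer membrane receptor of the FK506-binding family that recruits LC3. Its own start carried a peak in C26 replicate 1 (fold enrichment 4.07, percentile 30.5) and in CTRL replicate 2 (12.5, percentile 76.8). C26 replicate 2 and CTRL replicate 1 had none, so each group was split. The other 9 peaks within 5000 bp of Fkbp8 were nearer to a neighboring gene. Upstream, a peak at the end of Kxd1, which encodes a subunit of the lysosome-positioning BORC complex, had 29.4- and 30.7-fold enrichment in C26 replicates 1 and 2, against 57.4- and 101-fold in CTRL replicates 1 and 2. Its percentiles ran from 97.5 to 99.2 over the 4 lists. Downstream, peaks around the start of Ell, an elongation factor gene, were listed in every library, with 6.86- to 7.78-fold enrichment in the C26 lists and 13.2- and 18.6-fold in the CTRL lists. A window of 5000 bp therefore counts Fkbp8 in all 4 libraries, while its own start had a peak in 2 of them.

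**Figure D4:**
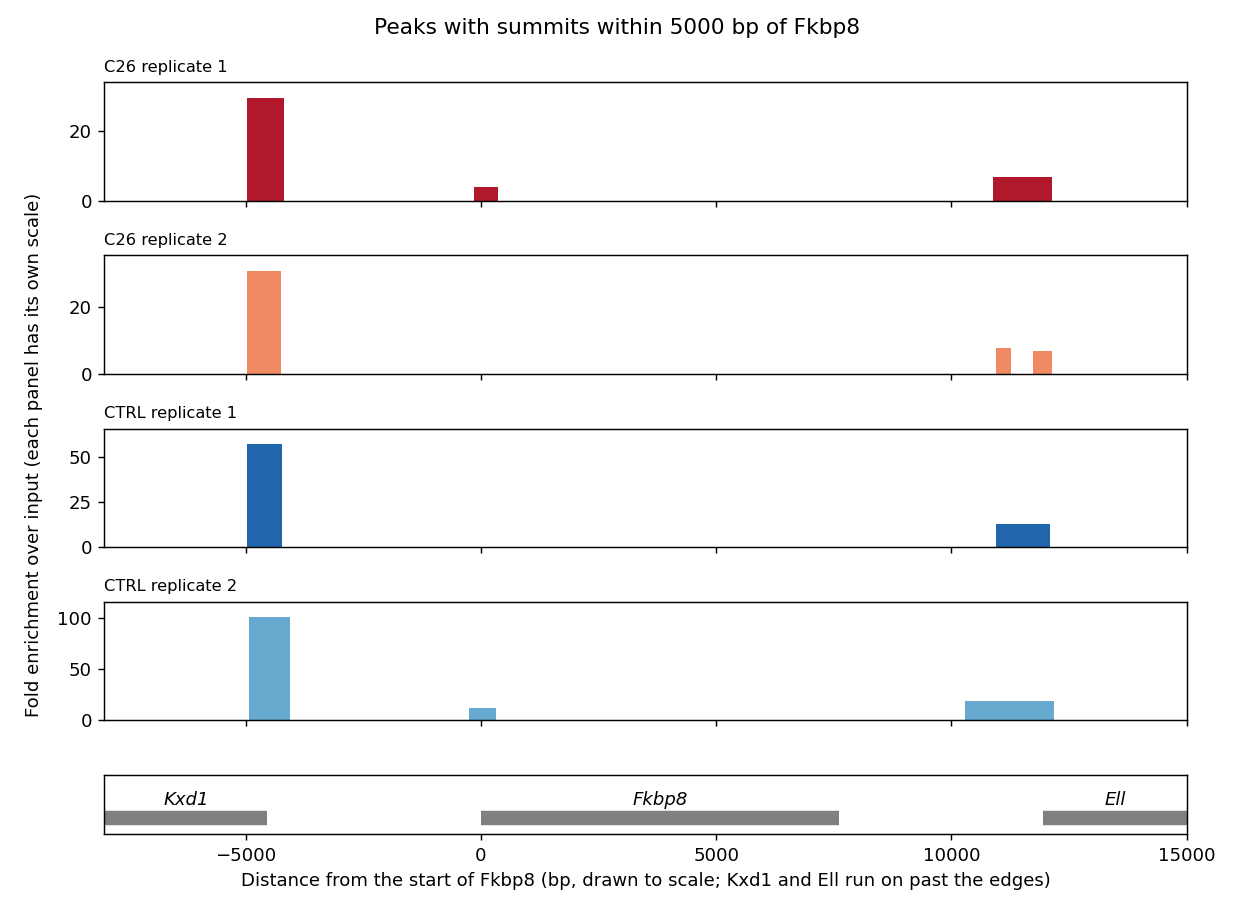
Peaks with summits within 5000 bp of Fkbp8, drawn to scale by distance from the Fkbp8 start (bp), with bar height giving the authors' fold enrichment on a separate axis per library and gray bars giving gene spans. The peak near −4600 bp is at the end of Kxd1 in all 4 libraries, and a bar at 0 is present in C26 replicate 1 and CTRL replicate 2.

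Fewer of the 8 genes had a peak in C26 than in CTRL muscle. With the summit in the gene span or within 5000 bp, 5 and 4 genes had a peak in the C26 libraries (replicates 1 and 2), against 8 and 7 genes in the CTRL libraries. The mean was 4.50 ± 0.707 genes in C26 and 7.50 ± 0.707 in CTRL libraries (SD, n = 2 per group), a difference of -3.00 that exceeded the spread within either group. The two-sided exact permutation test gave p = 0.333, the smallest value that 2 libraries against 2 allow. Among all protein-coding genes, the same rule found a peak for 34.3% and 19.8% in C26 replicates 1 and 2 and for 43.6% and 50.4% in CTRL replicates 1 and 2, so fewer genes in general had a peak in C26. Peaks in both C26 libraries were listed for 4 of the 8 genes (18.2% of all genes), in both CTRL libraries for 7 (41.6%) and in all 4 libraries for 4 (17.9%). Pink1 and Fundc1 had one in both CTRL and neither C26 library (8.60%). None of the 8 had the reverse pattern (0.0320%) or lacked a peak everywhere (47.0%).

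Counted at gene ends, 3 of 8 genes had a peak in both C26 libraries and 6 of 8 in both CTRL libraries, against a background of 13.0% and 32.2% of all protein-coding genes. A gene-end peak in all 4 libraries was present at 3 of 8 genes, against 12.7% of all. The pattern of Pink1 and Fundc1, both CTRL and neither C26 library, was found in 7.40% of all protein-coding genes. The reverse pattern occurred at none of the 8 genes and at 0.0274% of all. These shares are given for comparison without a test, since the genes were chosen with earlier results of these data known.

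How often a gene-end peak was missing from both C26 lists varied with its strength in CTRL muscle, and 6 of the 8 genes could be placed along that gradient. All genes whose end had a peak in both CTRL libraries were divided into deciles by the lower of their 2 CTRL percentiles. In the decile that held Pink1 (703 genes), 39.97% had no C26 gene-end peak. In the decile that held Bnip3 and Fundc1 (703 genes), 22.8% had none, 74.0% had one in C26 replicate 1 and 26.03% had one in C26 replicate 2. In the decile of Bnip3l and Bcl2l13, none of 703 genes lacked a C26 peak, and 84.9% had one in C26 replicate 2. In the strongest decile, which held Phb2, 98.2% had a peak in both C26 libraries. With every list cut to the 4051 peaks of highest −log10 q, Pink1 had no peak in either CTRL list and Fundc1 kept one in CTRL replicate 1 alone, so that 0 of the 8 genes kept the pattern of both CTRL and neither C26 library. The length of the lists, which differs between the groups, and binding at Pink1 and Fundc1 cannot be told apart here.

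**Figure D5:**
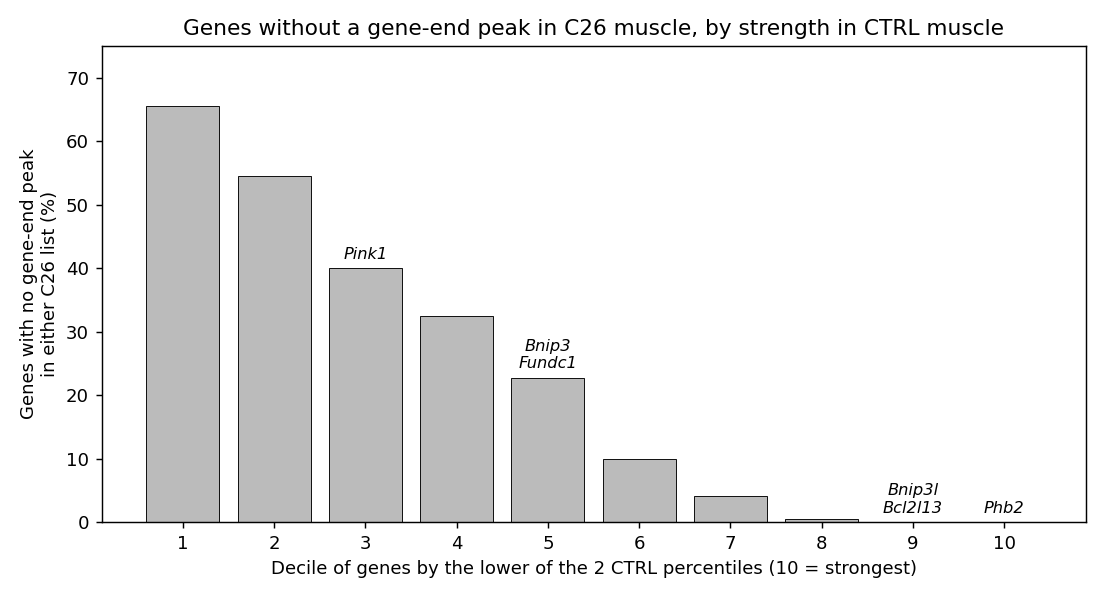
Share of genes with no gene-end peak in either C26 list (vertical axis, percent) among genes with one in both CTRL lists, by decile of CTRL strength (horizontal axis, 10 is strongest); the gene names mark where 6 of the 8 genes fall. The share is 39.97% in the decile of Pink1, 22.8% in that of Bnip3 and Fundc1, and 0 in those of Bnip3l, Bcl2l13 and Phb2.

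The order of strength among the 8 genes was compared within each list. Phb2, Bcl2l13 and Bnip3l led all 4 lists, in that order. Below them the 2 CTRL lists differed: CTRL replicate 1 placed Fundc1 (72.1), Bnip3 (60.5) and Pink1 (42.4) next, and CTRL replicate 2 placed Bnip3 (81.9), Fkbp8 (76.8), Pink1 (61.2) and Fundc1 (58.0), all as percentiles. Bnip3 stood above Pink1 in both CTRL lists, and the place of Fundc1 differed between them. The median percentile of the genes with a gene-end peak was 86.7 (5 genes) and 80.3 (3 genes) in C26 replicates 1 and 2, against 72.1 and 81.9 (7 genes each) in CTRL replicates 1 and 2. Over all protein-coding genes with such a peak the medians were 60.5 and 60.9 in the C26 lists and 63.6 and 69.2 in the CTRL lists.

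Other genes with a similar pattern were sought among the 2786 protein-coding genes with a gene-end peak in all 4 lists, by the largest difference in percentile over the 4 lists. Genes that share a member's own peak, such as Emg1, were set aside. Nearest to Phb2 were then Mrpl47, a mitochondrial ribosome gene, and Ndufb5, a complex I gene, which share a peak (0.521 percentile points at most). Nearest to Bcl2l13 were C330007P06Rik (2.16 points) and the transcription factor gene Stat3 (2.25 points). Nearest to Bnip3l were Tm9sf4 (2.01 points) and the kinase gene Grk6 (3.55 points).

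The remaining genes of the pathway were described from 4 lists by the same gene-end rule. On the list of 16 genes of the PINK1 route, 5 had a peak in both C26 libraries (13.0% of all protein-coding genes) and 13 in both CTRL libraries (32.2%), and 4 had the pattern of Pink1 (7.40%). By the wider 5000 bp rule Usp15 also had a peak in C26 replicate 1. The 4 genes were Tomm7, a translocase subunit that stabilizes PINK1 on the outer membrane, Usp30 and Usp15, which remove ubiquitin, and Mfn1, a fusion GTPase. Their peaks in CTRL replicate 1 ran from 5.38-fold at Tomm7 to 7.69-fold at Usp15, around the median of 6.43 over all peaks of that list. In CTRL replicate 2 they ran from 7.12-fold at Usp15 to 8.57-fold at Usp30, where the median was 7.17. By the lower CTRL percentile the strongest were Mfn2 (99.7), the ubiquitin ligase gene Mul1 (97.5) and the deubiquitinase gene Usp8 (95.5), each with a peak in all 4 libraries. Oma1, whose protease degrades PINK1, and Fbxo7 had no gene-end peak. By the 5000 bp rule both had a peak in both CTRL and neither C26 library, the pattern of Pink1. That rule gave the pattern at 5 of the 16 genes (8.60% of all genes): Oma1, Tomm7, Usp30, Mfn1 and Fbxo7.

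The LC3 and GABARAP genes, whose products the receptors bind, were 5: 4 had a peak in both C26 libraries (13.0% of all genes) and 5 in both CTRL libraries (32.2%). Map1lc3a was the strongest, with 20.2- and 17.3-fold enrichment in C26 replicates 1 and 2, against 35.7- and 38.6-fold in CTRL replicates 1 and 2. The next by the lower CTRL percentile were Map1lc3b (89.1) and Gabarapl1 (84.7), the member without a peak in C26 replicate 2. None of the 5 had the pattern of Pink1 (7.40% of all genes), a count too small to set the list apart.

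Of 7 adaptor genes, 3 had a peak in both C26 libraries (13.0% of all genes) and 6 in both CTRL libraries (32.2%). Nbr1 was the strongest by the lower CTRL percentile (98.7, at an end shared with Brca1), followed by Calcoco1 (87.8) and Optn (77.5), the gene of the ubiquitin-binding adaptor optineurin. Tollip, 1 of the 7, had the pattern of Pink1 (7.40% of all genes), its CTRL peaks being 4.28- and 10.9-fold over input (replicates 1 and 2).

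Among 15 genes of kinases, partners and regulators of the receptors, 2 had a peak in both C26 libraries (13.0% of all genes) and 8 in both CTRL libraries (32.2%). The pattern of Pink1 was found at 2 of the 15 (7.40% of all genes), and the counts for both C26 libraries and for this pattern are near the shares over all genes. Ulk1, the kinase that phosphorylates FUNDC1, and Nipsnap2, a mitochondrial protein that marks damaged organelles, were those genes. Nipsnap2 was the stronger, at 12.7- and 18.2-fold over input in the CTRL libraries, and Ulk1 had 5.41- and 8.45-fold. The strongest by the lower CTRL percentile were Rheb (95.9), Nipsnap2 (79.5) and Phb (71.4), the gene of prohibitin 1, with which PHB2 forms a ring complex. Unlike Phb2, Phb had no peak in C26 replicate 2, and it stood at percentile 20.0 in C26 replicate 1, against 71.7 and 71.4 in CTRL replicates 1 and 2. Foxo3, the FOXO factor that induces Bnip3, had a peak in C26 replicate 1 (4.78-fold) and in CTRL replicate 1 (8.23-fold) alone. Hif1a, Bcl2, Bcl2l1, Csnk2a2, Src and Nipsnap1 had no gene-end peak in any library. These calls depend on the window: with the span and 5000 bp on each side, Ulk1, Foxo3 and Hif1a had a peak in all 4 libraries. Bcl2l1 then had one in C26 replicate 1 and in both CTRL libraries. At gene ends, none of the genes on the 4 pathway lists had the reverse of the Pink1 pattern. It was found at 0.0274% of all genes, so its absence does not set these lists apart.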

How the data were processed

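Peaks of phospho-CREB1 ChIP-seq were analysed in 4 libraries of muscle, 2 of C26 and 2 of CTRL mice. The submitters' processing notes name MACS2 2.1.4, Bowtie2 2.3.5.1, SAMtools 1.6, FastQC 0.11.2 and Picard, with the build mm10 (GRCm38). According to the labels, every ChIP library had its peaks called against an input of its own group at a q threshold of 0.05, so peaks were not called on pooled libraries, and a further filter is named only by an abbreviation. The authors deposited, per peak, a fold enrichment over input and a −log10 q, which were used within a list only. Read depth is unknown, so no interval was computed.

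Gene spans came from the RefSeq annotation of GRCm38.p6, and strands and promoter sequences from the RefSeq promoter table of the same build. A peak was assigned to a gene when its summit lay in the span or within 5000 bp, and to a gene end within 1000 bp. The members and gene lists were chosen with earlier results of these data known. All 8 members are named. Per pathway list, the genes with gene-end peaks in both CTRL and neither C26 library, those without a peak and the 3 strongest by the lower CTRL percentile are named, and Foxo3 was named after its values were seen. Some items are not reported here. The deciles of CTRL strength, the ETS core and the neighbors' promoters were also added then. Assignment was tested on simulated peaks. Python 3.11.15, pandas 2.3.3 and numpy 2.4.6 were used. The alternatives were other windows, stricter q thresholds, trimmed lists, each library left out, other rankings and other overlaps.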

Additional observations from a re-analysis of the deposited data

How the results depend on the processing

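The mean count of genes with a peak was lower in C26 than in CTRL muscle under every window, threshold and left-out library tried, but with summits inside the span the groups overlapped (exact permutation p = 1.0). The mean difference, -3.00 genes, was -3.00 with gene ends or a −log10 q of at least 3 or 10, -1 with trimmed lists and -0.500 with summits inside the span, and ran from -3.50 to -2.50 when 1 library was left out. With the replicate block (paired by number), the value was -3.00 and the exact permutation p was 0.500, the smallest 2 pairs allow. The numbers are not stated to pair the samples, and the correlation over 9265 genes of the replicate 1 minus replicate 2 differences of the 2 groups was 0.0989. Each of the 4 libraries was also left out in turn, and the remaining library of its group then stood alone for that group. The count for both CTRL libraries was then 7 to 8, in both C26 libraries 4 to 5 and in all 4 libraries 4 to 5. In both CTRL and neither C26 library it was 2 to 3, the third being Bnip3 without C26 replicate 1 and Fundc2 without CTRL replicate 2.

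Because the summits sit just outside the gene spans, counting only summits inside the span gave 0 genes for each of the 4 patterns, and 1, 0, 0 and 2 genes (and as many peaks) in C26 replicates 1 and 2 and CTRL replicates 1 and 2. With lists trimmed to 4051 peaks, the count for both CTRL libraries was 4, 0 genes had the pattern of both CTRL and neither C26 library, and CTRL replicate 1 had 5 genes. For C26 replicate 2, 3 peaks were left at gene ends and 3 at a −log10 q of at least 10, of 6 within the window. At a −log10 q of at least 10 the genes with peaks in both CTRL and neither C26 library were Bnip3 and Fundc1, since Pink1 missed that threshold in CTRL replicate 1. Bnip3l missed it in C26 replicate 2, which left 3 genes in all 4 libraries: Bcl2l13, Phb2 and Fkbp8, the last through the Kxd1 peak. The 3 genes with overlapping peaks in all 4 lists were 2 with a reciprocal overlap of at least 50% and 3 with summits within 100 bp. Ranking by fold enrichment moved 1 of 22 percentiles by over 10 points (Fkbp8 in C26 replicate 1, to 18.8), and ranking among gene-end peaks moved 7 of 22, all downward. With 2 libraries per group the exact permutation test cannot give a p below 0.333.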
